A study of Mus musculus with 12 samples.

Results

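The alpha subunits of the heterotrimeric G proteins were followed in the liver as 10 genes: *Gna12* and *Gna13*, *Gnaq*, *Gna11* and *Gna14*, *Gnas*, *Gnai1*, *Gnai2* and *Gnai3*, and *Gnat1*. They were taken by gene symbol from a table of 45777 genes, in which all 10 were found. Each had counts in all 12 livers, with a lowest value of 22 counts, and each passed the filter on low counts in every comparison. The livers came from male C57BL/6 mice, which the labels give as 10 to 12 weeks old, and fell into 4 groups of 3: wild type (WT) with vehicle, WT with acetaminophen (APAP), *Gna12* knockout (KO) with vehicle and *Gna12* KO with APAP. All mice were fasted overnight. APAP, a painkiller that injures hepatocytes in overdose, was injected into the peritoneum at 300 mg/kg, and livers were sampled at 6 h. The KO is a whole-body deletion, and the WT mice were littermates of matching age. Which exons the deletion removes is not given in the sources used here. Each library is a separate liver of bulk tissue, in which fewer cells of a type and less RNA per cell cannot be told apart.

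A heterotrimeric G protein consists of an alpha, a beta and a gamma subunit. A receptor at the cell surface makes the alpha subunit exchange GDP for GTP, upon which alpha leaves beta-gamma and both act on effectors. Alpha subunits of the Gs class (*Gnas*) activate adenylyl cyclase and those of the Gi class (*Gnai1*, *Gnai2*, *Gnai3*, and the rod photoreceptor transducin *Gnat1*) inhibit it or, for transducin, act on a phosphodiesterase. Gq/11 alpha subunits (*Gnaq*, *Gna11*, *Gna14*) activate phospholipase C-beta, and the G12/13 pair (*Gna12*, *Gna13*) activates guanine nucleotide exchange factors for small GTPases of the cytoskeleton. In hepatocytes glucagon signals mainly through Gs, and adrenaline and vasopressin act in part through Gq/11.

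The counts of *Gna12*, the targeted gene, were not lower under the KO label. With vehicle, the WT livers had 3550, 1659 and 3172 counts and the livers labelled KO had 4003, 3422 and 2472. With APAP, the WT livers had 1193, 4373 and 3178 counts and the livers labelled KO had 2489, 3023 and 3248. The WT and KO values overlapped in both treatments, and the 2 lowest values were both from WT livers. Counts were summed over the whole gene, so a transcript that lacks only part of *Gna12* would still be counted. The genotype is therefore given below as a label (KO label). The study itself typed WT and *Gna12* KO mice by PCR of tail DNA. It also measured *Gna12* in liver by qRT-PCR and its protein by immunoblot. Whether the sequenced livers were among those checked is not given in the sources used here.

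Total counts ran from 49737950 to 69566079 per library. All 8 hepatocyte markers were present in each group, with a summed level of 56010 to 87250 TPM (a level scaled for transcript length and for the library total) per liver. Of the WT libraries, numbered here by replicate, 2 stood apart. WT APAP 1 had 28810 TPM of summed erythroid markers against 657 to 1560 TPM in the other 11 livers, and 233 TPM of summed neutrophil markers against 0.874 to 51.1 TPM. WT vehicle 2 had 39.0 TPM of neutrophil markers against 0.874 and 1.32 TPM in the other WT vehicle livers. These were also the livers with the lowest *Gna12* values, so results that rest on them are given with and without both; the part of these cells in the results was not tested.

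The end of the alpha subunit contacts the receptor and contributes to which receptors it serves, so the last 11 codons before the stop codon are shown for all 10 genes, 5′ to 3′, from the GENCODE M21 annotation of GRCm38. Capitals mark the fourth codon from the end. In the Gi class it is a cysteine codon (TGT or TGC), the site that pertussis toxin modifies in these proteins.
*Gna12*, chr5:140760552-140760584, minus strand: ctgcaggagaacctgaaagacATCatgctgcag
*Gna13*, chr11:109396451-109396483, plus strand: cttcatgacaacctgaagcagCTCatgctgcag
*Gnaq*, chr19:16383359-16383391, plus strand: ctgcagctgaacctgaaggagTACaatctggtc
*Gna11*, chr10:81530798-81530830, minus strand: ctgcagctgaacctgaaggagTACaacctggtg
*Gna14*, chr19:16609495-16609527, plus strand: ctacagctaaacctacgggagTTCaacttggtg
*Gnas*, chr2:174346353-174346385, plus strand: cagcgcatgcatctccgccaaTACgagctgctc
*Gnai1*, chr5:18267022-18267054, minus strand: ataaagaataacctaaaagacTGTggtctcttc
*Gnai2*, chr9:107615638-107615670, minus strand: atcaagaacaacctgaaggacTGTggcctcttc
*Gnai3*, chr3:108109425-108109457, minus strand: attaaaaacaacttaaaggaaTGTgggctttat
*Gnat1*, chr9:107675891-107675923, minus strand: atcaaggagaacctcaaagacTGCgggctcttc

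Over the whole coding sequence, the closest pair was *Gnaq* and *Gna11*, at 80.5% identity over 1077 aligned bases. *Gnai1* and *Gnai2* followed at 78.7%, and *Gna12* and *Gna13* were 68.7% identical. Even so, the transcripts of 9 of the 10 genes held no word of 100 bases, the length of a read, that occurs in another gene. *Gnai2* shared 6 of 4020 such words (0.149%), none of them with another alpha subunit. No word of this length was shared between members.

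Several members lie near each other in the genome (RefSeq, GRCm38.p6). *Gnaq* and *Gna14* are neighbours on chromosome 19, 47146 bases apart on the same strand, and *Gnai2* and *Gnat1* lie 39045 bases apart on chromosome 9, with *Slc38a3* between them. *Gna12* (chr5:140759944-140830431, minus strand) and *Gna13* (chr11:109362794-109401369, plus strand) are on different chromosomes. *Gnaq* spans the pseudogene *Gm10819* on the opposite strand (mean 27.3 CPM), and *Gna13* shares 861 bases with the antisense RNA gene *Gm11696* (mean 0.322 CPM). These overlaps are between whole gene spans, and exons were not compared. Whether counting used the strand is not given in the sources used here, so how far reads of these genes were kept apart is not known. The 250 bases before the start of *Gna12*, *Gna13* and *Gna14* are printed because these genes passed a test with APAP in at least 1 comparison. The promoter table held 8 of the 10 members, all except *Gnai2* and *Gnat1*. The motifs searched on both strands were the GC box (GGGCGG), the CCAAT box (CCAAT), the cyclic AMP response element (TGACGTCA), the AP-1 site (TGAGTCA), the TATA box (TATAAA) and the ER stress response element, which includes a CCAAT box, and capitals mark every match.
*Gna12*, chr5:140830432-140830681, minus strand: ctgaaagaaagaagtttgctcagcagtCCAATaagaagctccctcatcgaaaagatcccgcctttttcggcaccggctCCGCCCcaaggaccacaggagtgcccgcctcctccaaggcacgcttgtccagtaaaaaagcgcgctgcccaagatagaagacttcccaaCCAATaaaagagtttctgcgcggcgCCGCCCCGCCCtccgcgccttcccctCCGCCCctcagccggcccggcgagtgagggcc
*Gna13*, chr11:109362544-109362793, plus strand: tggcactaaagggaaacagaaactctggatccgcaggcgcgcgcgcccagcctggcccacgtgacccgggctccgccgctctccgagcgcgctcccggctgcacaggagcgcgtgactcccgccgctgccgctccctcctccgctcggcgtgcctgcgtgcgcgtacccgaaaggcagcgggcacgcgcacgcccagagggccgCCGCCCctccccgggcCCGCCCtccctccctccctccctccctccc
*Gna14*, chr19:16435417-16435666, plus strand: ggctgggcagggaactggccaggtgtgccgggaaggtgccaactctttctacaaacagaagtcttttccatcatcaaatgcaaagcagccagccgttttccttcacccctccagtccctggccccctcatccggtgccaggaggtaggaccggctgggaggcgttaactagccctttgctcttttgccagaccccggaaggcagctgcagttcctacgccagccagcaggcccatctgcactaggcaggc

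The *Gna12* window held 4 matches to the GC box, 2 of which share a base, and 2 to the CCAAT box. The *Gna13* window held 2 matches to the GC box, and the *Gna14* window held no match to any of the 6 motifs. Of the 32851 windows of this length in the table, 32.7% held a GC box, 33.8% a CCAAT box, 1.55% a cyclic AMP response element, 4.46% an AP-1 site, 12.4% a TATA box and 0.113% an ER stress response element. A match is a run of letters and not a binding site.

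*Gnas* was the most abundant alpha subunit transcript in every liver. Its level ran from 188 to 310 TPM with a median of 256.5 TPM over the 12 livers, which was 57.4% to 70.6% of the summed TPM of the 10 genes. *Gna12* came next, with a median of 46.8 TPM and a range of 12.5 to 70.2 TPM. It was followed by *Gnai2* (median 39.9 TPM), *Gnai3* (32.0 TPM) and *Gna11* (24.8 TPM). *Gna13* had a median of 8.72 TPM, *Gnat1* 6.12 TPM and *Gnaq* 4.94 TPM. *Gnai1* and *Gna14*, at medians of 0.418 and 0.40 TPM, were the lowest, with 22 to 88 and 24 to 116 counts per liver.

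**Figure D1:**
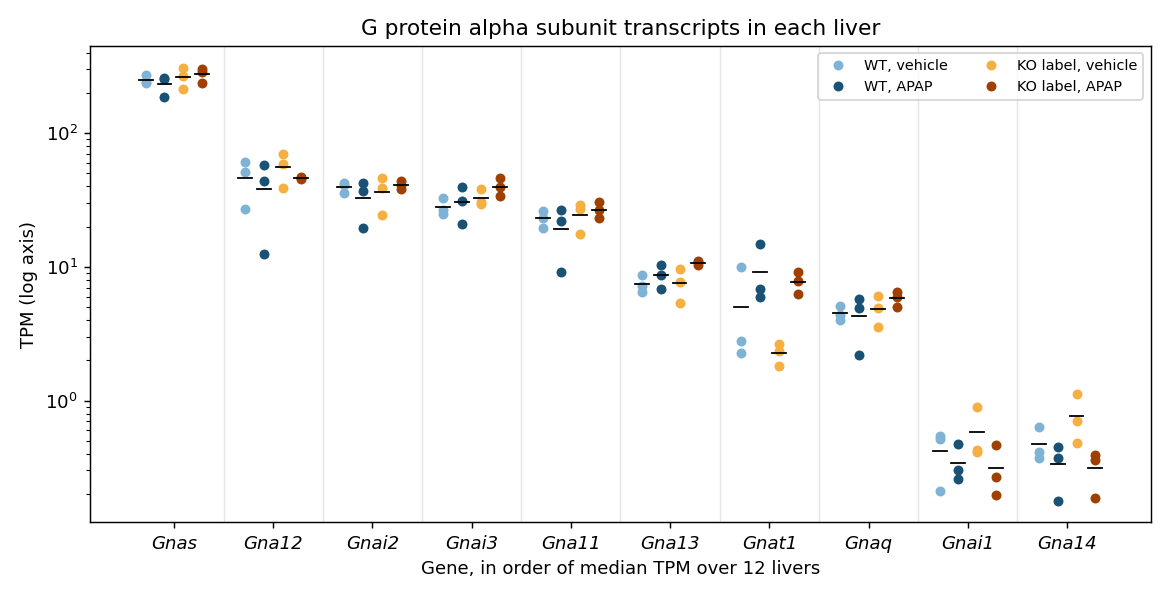
Level of each alpha subunit transcript in each liver, in TPM on a log axis, with a black bar at the mean of each group of 3 livers. The order from *Gnas*, at 188 to 310 TPM, down to *Gnai1* and *Gna14*, both near 0.4 TPM at the median, can be followed across groups, and *Gnat1* had the widest spread of the genes above 1 TPM.

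Some neighbours in this order could not be separated. *Gnas* was above *Gna12*, *Gnai3* above *Gna11*, *Gna11* above *Gna13* and *Gnaq* above *Gnai1* in all 12 livers. *Gna12* exceeded *Gnai2* in 10 of 12 livers, and the exceptions were WT APAP 1 and WT vehicle 2. *Gnai2* exceeded *Gnai3* in 9 livers and *Gna13* exceeded *Gnat1* in 10. *Gnat1* was above *Gnaq* in 7 livers and *Gnai1* above *Gna14* in 5, so neither pair had a fixed order. By group median, *Gnat1* ranked below *Gnaq* in both vehicle groups and above it in both APAP groups.

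Spread over the livers also differed between genes. The coefficient of variation of CPM over the 12 livers (counts relative to the library total after TMM scaling, which corrects for library size and composition) was 7.61% for *Gnas*, 9.97% for *Gnai3*, 10.7% for *Gnaq*, 12.4% for *Gna13*, 12.5% for *Gnai2* and 13.4% for *Gna11*. It was 26.5% for *Gna12*, 40.0% for *Gnai1*, 46.4% for *Gna14* and 68.4% for *Gnat1*. *Gnas*, the subunit through which glucagon raises cyclic AMP, had the lowest of these values. The *Gna12* value includes the livers WT APAP 1 and WT vehicle 2, at 23.3 and 34.8 CPM.

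By class, Gs made up 60.7%, 63.9% and 61.4% of the summed TPM in the WT vehicle livers and 60.3%, 61.0% and 63.5% in the KO label vehicle livers. Gi made up 16.9%, 20.9% and 16.3% in WT vehicle and 17.1%, 16.3% and 16.9% in KO label vehicle. After APAP, Gi made up 17.8%, 19.9% and 19.8% in WT and 20.3%, 19.5% and 18.8% under the KO label. Under the KO label the Gi share was higher in each APAP liver than in each vehicle liver, whereas in WT the groups overlapped. The Gq/11 share was between 4.33% and 7.83% in all 12 livers.

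**Figure D2:**
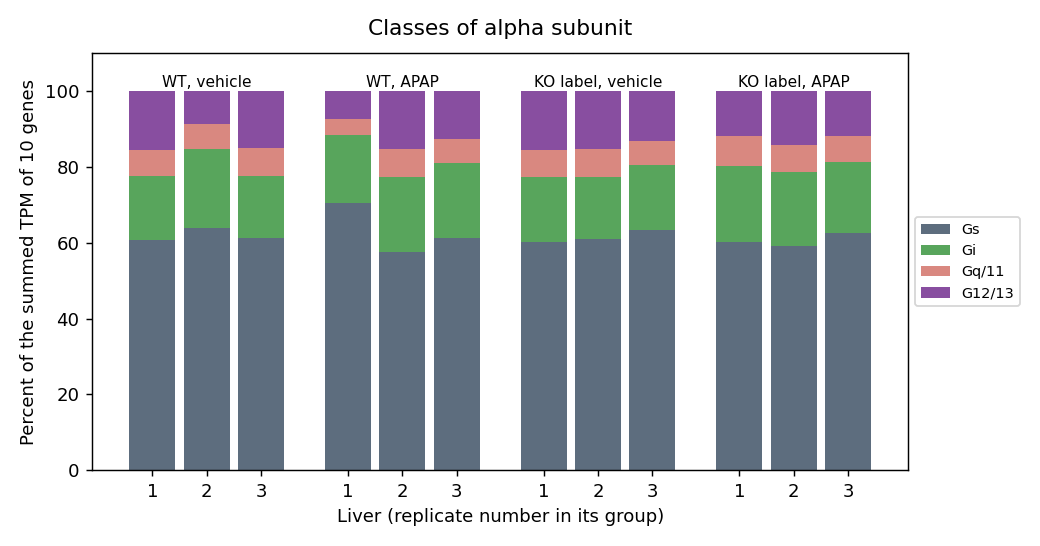
Share of each class of alpha subunit in the summed TPM of the 10 genes, one stacked bar per liver, in percent. Gs filled 57.4% to 70.6% of every bar, and the G12/13 segment was smallest in WT APAP 1 (7.28%) and WT vehicle 2 (8.78%).

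The G12/13 class made up 15.5%, 8.78% and 15.1% of the sum in WT vehicle, 7.28%, 15.3% and 12.6% in WT APAP, 15.5%, 15.2% and 13.2% in KO label vehicle, and 11.9%, 14.3% and 11.9% in KO label APAP. Within this class, the ratio of *Gna12* to *Gna13* TPM was 7.06, 4.16 and 7.11 in WT vehicle and 7.31, 7.71 and 7.18 in KO label vehicle. After APAP it was 1.83, 5.56 and 5.03 in WT and 4.21, 4.57 and 4.17 under the KO label. The ratio was lower in each of the 3 KO label APAP livers than in the 3 KO label vehicle livers. In WT the same order held apart from WT vehicle 2, whose ratio of 4.16 was below that of the APAP livers 2 and 3.

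Whether any alpha subunit changed with the genotype label was tested with edgeR's quasi-likelihood test and Benjamini-Hochberg adjustment over all genes, at a threshold of 0.05. No member passed in any of the 3 comparisons. With vehicle, 0 of 10 members passed, where 0.0262% of the 15262 genes tested did, and at an unadjusted p under 0.05 it was again 0 of 10, against 7.56% of genes. With APAP, 0 of 10 passed, where 0.0309% of 16174 genes did, and 0 of 10 at the unadjusted threshold, against 3.31%. Over all 12 livers with treatment as a covariate, 0 of 10 passed, where 0.00606% of 16509 genes did, and 1 of 10, *Gnat1*, had an unadjusted p under 0.05, against 5.79%. The Wald test of DESeq2 and limma likewise called 0 members in each of the 3. Stellate cell markers (8 genes) summed to 86.5 to 103 TPM in WT vehicle and 139 to 172 TPM in KO label vehicle, and cholangiocyte markers (8 genes) to 18.4 to 20.7 TPM and 27.0 to 30.7 TPM, with none of either list at 0. With vehicle, 0 of 8 stellate cell markers and 0 of 7 tested cholangiocyte markers passed between the labels by edgeR. Their median log2 differences were 0.56 and -0.11, so the median cholangiocyte marker did not rise with the sum. After APAP, neutrophil markers (8 genes) summed to 25.5 to 233 TPM in WT and 1.12 to 18.5 TPM under the KO label. Of that list, *Mpo* and *Camp* were at 0 in both groups. The part of these cells in the label comparisons was not tested.

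*Gna12* had 66.7, 34.8 and 63.4 CPM in WT vehicle and 67.2, 66.7 and 54.7 CPM in KO label vehicle. After APAP it had 23.3, 58.8 and 50.5 CPM in WT and 43.3, 48.1 and 46.6 CPM under the KO label. Apart from WT vehicle 2 and WT APAP 1, values with vehicle were between 54.7 and 67.2 CPM and values with APAP between 43.3 and 58.8 CPM under both labels. The KO label minus WT difference for all livers was 0.13 on the log2 scale (SE 0.21, 95% interval -0.32 to 0.57, adjusted p = 0.958 by edgeR). An exact 2-sided permutation test of the mean log2(CPM + 1), with labels permuted within each treatment, gave a difference of 0.20 and p = 0.465 over 400 assignments. Without both libraries that stand apart, the difference turned to -0.15 (adjusted p = 0.884 by edgeR), and the exact permutation test gave p = 0.16.

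*Gna13*, the other member of the class, which also acts on these exchange factors, had 28.6, 24.8 and 26.0 CPM in WT vehicle and 26.5, 25.1 and 21.7 CPM in KO label vehicle. With APAP it had 33.9, 31.4 and 27.7 CPM in WT and 28.1, 29.4 and 32.2 CPM under the KO label. The labels overlapped in both treatments. With all livers in the fit, the KO label minus WT difference was -0.08 on the log2 scale (SE 0.089, 95% interval -0.28 to 0.11, adjusted p = 0.930 by edgeR), so the interval spans 0.826 to 1.08 times the WT level.

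The Gq/11, Gs and Gi subunits gave intervals of similar width. Over the 12 livers, the KO label minus WT difference was 0.08 for *Gnaq* (95% interval -0.14 to 0.31), 0.11 for *Gna11* (-0.15 to 0.36) and -0.05 for *Gnas* (-0.27 to 0.16) on the log2 scale. It was -0.12 for *Gnai2* (-0.34 to 0.11) and 0.10 for *Gnai3* (-0.10 to 0.30). For the low *Gna14* and *Gnai1* the intervals were wider, at -0.51 to 0.70 and -0.76 to 0.64. *Gnat1* was lower under the KO label by estimate, at -0.93 (SE 0.38, 95% interval -1.76 to -0.10, unadjusted p = 0.0313, adjusted p = 0.827 by edgeR). That estimate was -0.43 without WT vehicle 2 and -0.38 without both libraries that stand apart (unadjusted p = 0.19, adjusted p = 0.899 by edgeR). The median over the 10 members was 0.02 and the median over all genes tested 0.01.

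**Figure D3:**
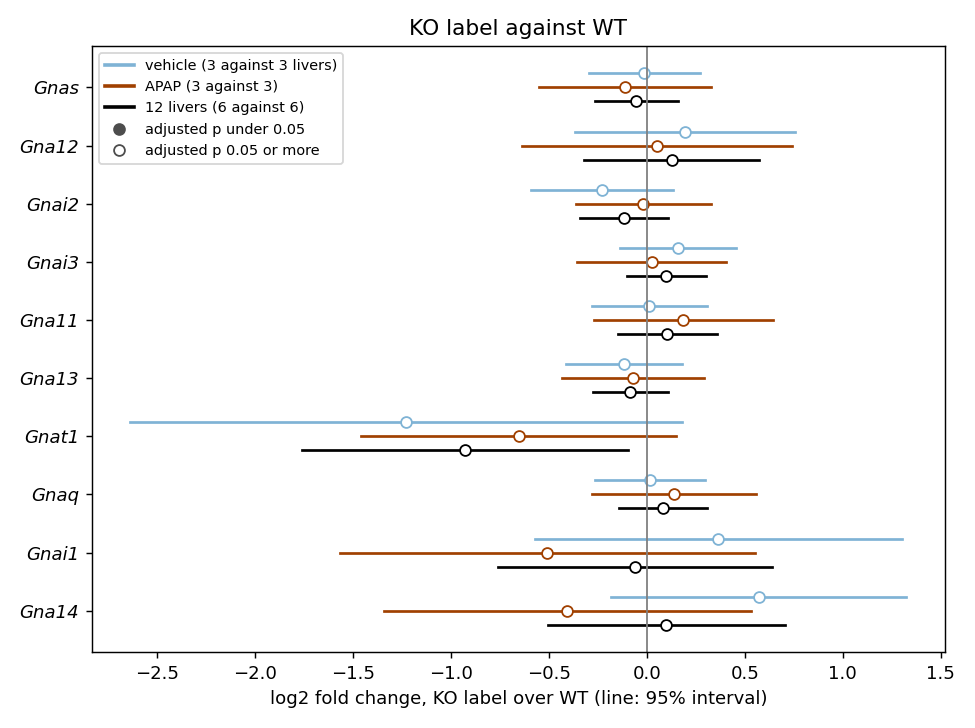
KO label against WT for each member: log2 fold change (point) and 95% interval (line) with vehicle, with APAP and over 12 livers. Every point is open, meaning that no member passed the adjusted threshold, and the widest intervals belong to *Gnat1*, *Gnai1* and *Gna14*.

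APAP was compared with vehicle within each label and over all 12 livers. In WT livers 0 of 10 members passed, where 2.05% of 15693 genes did, and 0 of 10 had an unadjusted p under 0.05, against 18% of genes. DESeq2 and limma also called 0 members there. Under the KO label 3 of 10 passed (*Gna12*, *Gna14* and *Gnat1*), where 22.6% of 15665 genes did, and 5 of 10 at the unadjusted threshold, against 37.1%. Over the 12 livers 3 of 10 passed (*Gna13*, *Gna14* and *Gnat1*), where 25.4% of 16509 genes did, and 3 of 10 at the unadjusted threshold, against 37.1%. These shares are near the background of the same comparisons. Platelet markers moved with APAP as well: their 8 genes summed to 8.38 to 11.4 TPM in the vehicle livers and 14.9 to 36.8 TPM in the APAP livers, with *Ppbp* at 0 in all vehicle livers. Cholangiocyte markers summed to 18.4 to 20.7 TPM in WT vehicle and 26.7 to 36.7 TPM in WT APAP, and stellate cell markers to 86.5 to 103 TPM and 125 to 150 TPM. Gene by gene in WT, 1 of 7 tested cholangiocyte markers and 0 of 8 stellate cell markers passed by edgeR, where 2.05% of genes did. Their median log2 fold changes were 0.82 and 0.19. Under the KO label, cholangiocyte markers summed to 27.0 to 30.7 TPM with vehicle and 29.4 to 32.4 TPM with APAP. Stellate cell markers went the other way there, at 138.6 to 172 TPM with vehicle and 122.5 to 138.7 TPM with APAP. Under this label 1 of 7 tested cholangiocyte markers rose and 3 of 8 stellate cell markers fell by edgeR, where 22.6% of genes passed. The part of these cells in the results was not tested. The median member log2 difference over the 12 livers was -0.08, and that of all genes 0.01.

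**Figure D4:**
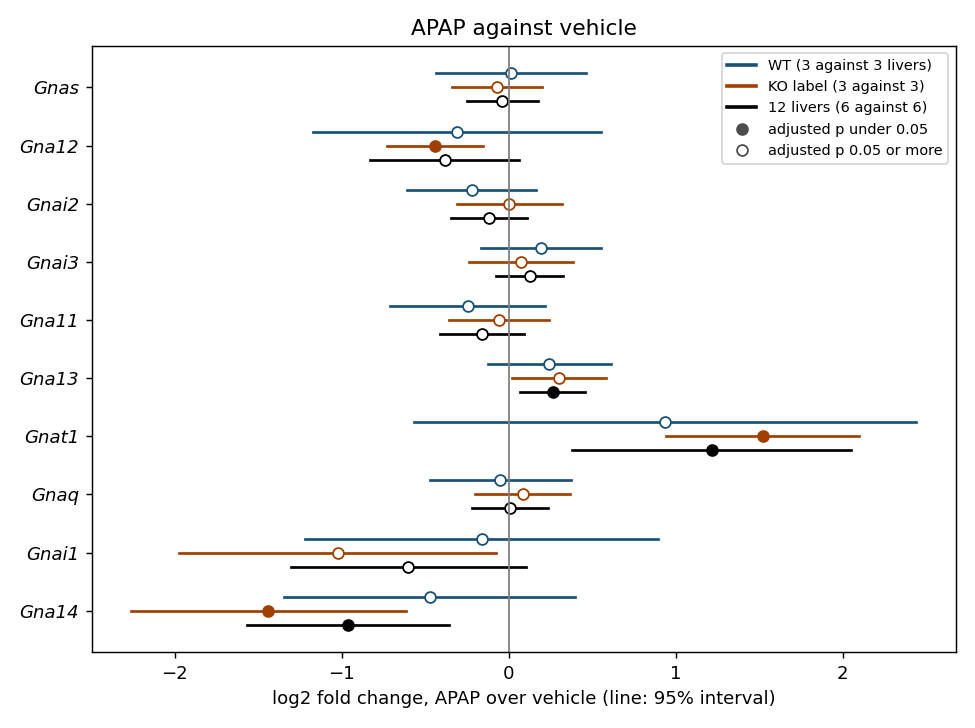
APAP against vehicle for each member: log2 fold change (point) and 95% interval (line) in WT livers, under the KO label and over 12 livers. Filled points passed the adjusted threshold: *Gna12*, *Gnat1* and *Gna14* under the KO label, and *Gna13*, *Gnat1* and *Gna14* over 12 livers, while *Gnas*, *Gnai2*, *Gnai3* and *Gnaq* lie near 0.

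*Gna12* had a lower estimate with APAP in each of the 3 comparisons and passed in 1 of them. Under the KO label each APAP liver (43.3 to 48.1 CPM) was below each vehicle liver (54.7 to 67.2 CPM), and the log2 fold change was -0.44 (SE 0.13, 95% interval -0.73 to -0.15, adjusted p = 0.0387 by edgeR), or 0.737 times the vehicle level. In WT livers the groups overlapped and the log2 fold change was -0.31 (SE 0.37, 95% interval -1.17 to 0.55, adjusted p = 0.699 by edgeR). It was -0.015 without WT APAP 1, -0.58 without WT APAP 2 and -0.26 (adjusted p = 0.355) without both libraries that stand apart. Over the 12 livers it was -0.38 (SE 0.21, 95% interval -0.83 to 0.06, adjusted p = 0.199 by edgeR), and the exact permutation test within labels gave p = 0.145. Without both libraries that stand apart the 12-liver value was -0.36 with an adjusted p of 0.0116 (edgeR), and the exact permutation p was 0.0167. With 120 assignments, that is the smallest p this 2-sided test can give. Both libraries were set apart after the data were seen and hold the lowest *Gna12* values, so leaving them out also narrows the spread of *Gna12*. The KO label call was lost when the 12 livers shared 1 estimate of the spread (adjusted p = 0.358 by edgeR) and when any library but KO vehicle 3 was left out.

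*Gna13* transcripts rose over the 12 livers. Vehicle livers had 21.7 to 28.6 CPM and APAP livers 27.7 to 33.9 CPM, so the groups overlapped only at the edge. The log2 fold change was 0.26 (SE 0.089, 95% interval 0.07 to 0.46, adjusted p = 0.0465 by edgeR), or 1.20 times the vehicle level. The estimates were alike within labels, at 0.24 (adjusted p = 0.462) in WT and 0.30 (adjusted p = 0.111) under the KO label by edgeR, neither of which passed. The call over 12 livers was close to the threshold: it was lost on leaving out any library other than WT vehicle 1 or WT APAP 3, with a log2 fold change of 0.22 to 0.30 throughout, and without both libraries that stand apart (0.23, adjusted p = 0.0797).

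**Figure D5:**
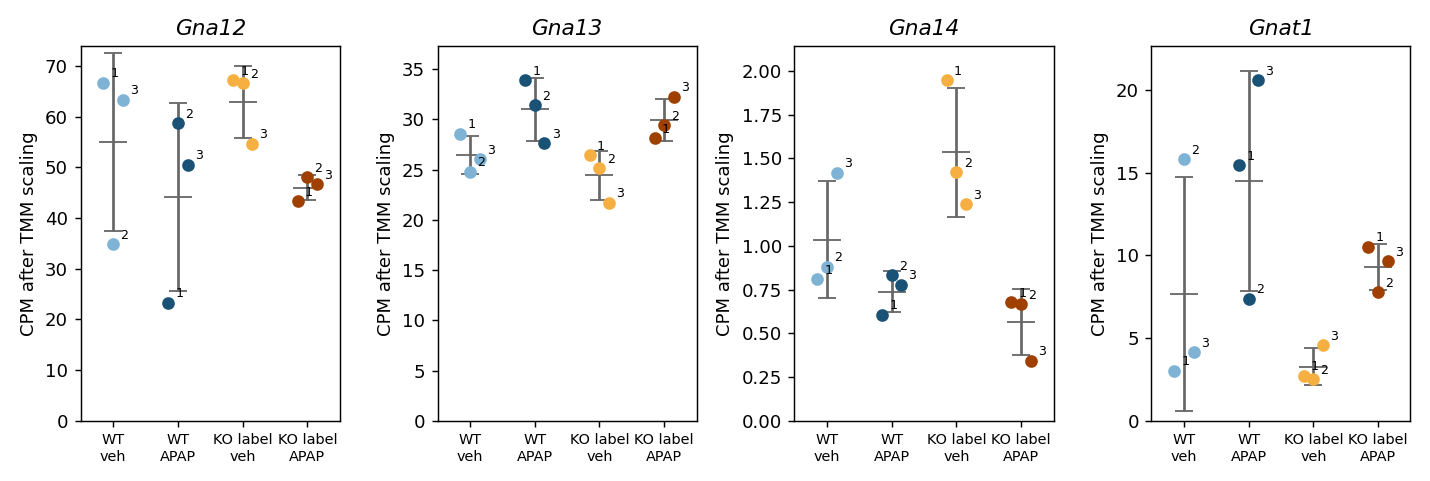
CPM after TMM scaling of the 4 members that passed a test with APAP, one point per liver with its replicate number, bars at the mean with 1 SD of 3 livers. *Gna14* under the KO label went from 1.24 to 1.95 CPM with vehicle to 0.345 to 0.678 CPM with APAP, *Gnat1* from 2.51 to 4.58 CPM to 7.79 to 10.5 CPM, and WT vehicle 2 (*Gnat1* at 15.8 CPM) and WT APAP 1 (*Gna12* at 23.3 CPM) lie apart from their groups.

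Among the Gq/11 subunits only *Gna14* passed. It had 0.808, 0.882 and 1.42 CPM in WT vehicle and 0.606, 0.833 and 0.779 CPM in WT APAP, values that overlapped. In livers with the KO label it had 1.95, 1.42 and 1.24 CPM with vehicle and 0.678, 0.668 and 0.345 CPM with APAP, with no overlap. These values rest on 24 to 116 counts. The log2 fold change was -0.47 (SE 0.37, adjusted p = 0.549) in WT and -1.44 (SE 0.36, adjusted p = 0.0242) under the KO label by edgeR, the latter 0.369 times the vehicle level. Across all livers *Gna14* fell by 0.96 on the log2 scale (SE 0.28, adjusted p = 0.0234 by edgeR). That call was lost without KO APAP 1, KO APAP 3, KO vehicle 1 or WT vehicle 3, with values from -1.08 to -0.78, and the KO label call was lost without KO APAP 3, KO vehicle 1 or KO vehicle 2.

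*Gnaq* and *Gna11*, the main Gq/11 subunits of the liver by level, gave small differences. Over the 12 livers the log2 fold change with APAP was 0.01 for *Gnaq* (95% interval -0.22 to 0.23) and -0.16 for *Gna11* (-0.41 to 0.09). *Gnas*, the Gs subunit, had 285 to 304 CPM in WT vehicle, 253 to 338 CPM in WT APAP, 287 to 292 CPM in KO label vehicle and 263 to 296 CPM in KO label APAP. Its log2 fold change over the 12 livers was -0.04 (SE 0.098, 95% interval -0.25 to 0.18, adjusted p = 0.816 by edgeR), an interval of 0.841 to 1.13 times the vehicle level.

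In the Gi class, *Gnai2* and *Gnai3*, its abundant members, did not pass, with log2 fold changes over the 12 livers of -0.12 (95% interval -0.34 to 0.11) and 0.13 (-0.08 to 0.33). In WT livers *Gnai2* had 51.5, 63.8 and 50.8 CPM with vehicle and 41.9, 50.2 and 49.0 CPM with APAP, which did not overlap, with a log2 fold change of -0.22 (SE 0.17, adjusted p = 0.524 by edgeR). *Gnai1*, a low member with 22 to 88 counts per liver, had 1.48, 0.818 and 0.995 CPM with vehicle and 0.452, 0.811 and 0.345 CPM with APAP under the KO label. These values did not overlap, though the vehicle liver 2 and the APAP liver 2 differed by less than 0.01 CPM. The log2 fold change was -1.02 (SE 0.41, unadjusted p = 0.0377, adjusted p = 0.111 by edgeR) under the KO label and -0.16 (SE 0.46, adjusted p = 0.884) in WT.

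*Gnat1*, which encodes the transducin of rod photoreceptors, showed the largest fold change of the family with APAP. It had 3.03, 15.8 and 4.16 CPM in WT vehicle and 15.5, 7.39 and 20.6 CPM in WT APAP. Under the KO label it had 2.74, 2.51 and 4.58 CPM with vehicle and 10.5, 7.79 and 9.63 CPM with APAP. All APAP livers lay above 7 CPM and 5 of 6 vehicle livers below 5 CPM, the exception being WT vehicle 2. The log2 fold change was 1.52 (SE 0.25, adjusted p = 0.00528) under the KO label and 0.94 (SE 0.65, adjusted p = 0.488) in WT by edgeR. The WT value was 2.02 (adjusted p = 0.0873) without WT vehicle 2, 0.55 without WT vehicle 1 and 1.96 (adjusted p = 0.0924) without both libraries that stand apart. In all livers it was 1.21 (SE 0.39, 95% interval 0.38 to 2.05, adjusted p = 0.0352 by edgeR), or 2.32 times the vehicle level, and 1.70 (adjusted p = 0.00101) without both libraries that stand apart. The 12-liver call was lost on leaving out 8 of the 12 libraries in turn (all except KO vehicle 3, WT APAP 1, WT APAP 2 and WT vehicle 2), with values from 1.07 to 1.74.

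Of 8 other genes of rod photoreceptors, *Pde6a* (a phosphodiesterase subunit), *Nrl* (a transcription factor) and *Rcvrn* (recoverin) were listed at 0 TPM in all 12 livers. *Pde6b* and *Cnga1* were at 0 in all vehicle livers but not in all APAP livers of either label. The 8 genes summed to 0.4389 to 1.855 TPM per liver. Only 1 of them had enough counts for the test over the 12 livers, and it did not pass with APAP (log2 fold change -0.32 by edgeR). *Gnat1* lies on chromosome 9 (chr9:107674437-107679634, minus strand) between *Slc38a3* (a glutamine transporter), 5468 bases away, and *Sema3f* (a semaphorin), 1864 bases away, both on the same strand. Both were looked up after the *Gnat1* values had been seen. *Slc38a3* had a mean of 1740 CPM and fell by 0.51 on the log2 scale with APAP over the 12 livers (SE 0.12, adjusted p = 0.00806 by edgeR), opposite to *Gnat1*. *Sema3f* had a mean of 7.87 CPM and rose by 0.65 (SE 0.18, adjusted p = 0.0176 by edgeR). Across the 12 livers, which share the treatment groups, the Pearson correlation of *Gnat1* with *Sema3f* was 0.717 and with *Slc38a3* -0.489. A part of neighbouring transcripts in the *Gnat1* counts was not tested.

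Whether the APAP difference itself depended on the genotype label was tested as an interaction over the 12 livers. None of the 16509 genes passed by edgeR (0%; the DESeq2 Wald test called 9), and 0 of 10 members had an unadjusted p under 0.05, against 5.14% of genes. The DESeq2 Wald test and limma also called 0 members. For *Gna12* the interaction was -0.13 on the log2 scale (95% interval -1.06 to 0.80), and for *Gna13* 0.06 (-0.34 to 0.46). *Gna14* had -0.97 (SE 0.50, unadjusted p = 0.0779, adjusted p = 0.872 by edgeR) and *Gnat1* 0.59 (95% interval -1.10 to 2.27), which turned to -0.43 without both libraries that stand apart. The calls under the KO label that were absent in WT are therefore not shown to differ between the labels.

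A further 6 alpha subunit genes were low. *Gnal*, the Gs relative of the olfactory epithelium, had 26 to 102 counts per liver, *Gnat2*, the transducin of cones, 12 to 32, and *Gnao1*, the main alpha subunit of neurons, 4 to 17. *Gna15* had 0 to 14 counts and *Gnaz* 0 to 10, and *Gnat3*, of taste cells, had 0 counts in all 12 livers. Of these genes 3 had enough counts for the test in every comparison (4 in the APAP comparison of WT livers), and 0 passed by edgeR in any, with 0 also at an unadjusted p under 0.05. For the 3, the KO label minus WT difference over the 12 livers was -0.28 for *Gnal* (SE 0.30), -0.31 for *Gnat2* (SE 0.28) and -0.28 for *Gnao1* (SE 0.37), with unadjusted p of 0.36, 0.294 and 0.458.

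Of the beta subunits, which dock the alpha subunit at the membrane with gamma, 4 of 5 were tested and 0 passed with APAP over the 12 livers, where 25.4% of all genes did. The lists below are read against the same share. By edgeR, 0 of them had an unadjusted p under 0.05, and their median log2 fold change was 0.02. Of 12 gamma subunits 8 were tested and only *Gng7* passed, with a log2 fold change of -1.01 (SE 0.24, adjusted p = 0.00839 by edgeR). Among 8 tested chaperones and receptor-independent activators, *Ric8b*, the chaperone of Gs-type alpha subunits, rose by 0.30 (adjusted p = 0.0299), and *Nucb1* fell by 0.24 (adjusted p = 0.0469 by edgeR). Of 12 tested RGS genes, whose products speed up GTP hydrolysis by alpha subunits, only *Rgs16* passed. It had 21.2 to 263 CPM in WT vehicle (median 40.1 CPM) and 7.89 to 26.5 CPM in WT APAP, and 74.0 to 90.2 CPM and 8.41 to 21.4 CPM under the KO label, so the groups overlapped in WT and 1 WT vehicle liver lay far above the rest. Over the 12 livers it had a log2 fold change of -2.55 (SE 0.54, adjusted p = 0.0042 by edgeR).

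Of 18 tested effectors of Gs and Gi, 4 rose and 3 fell with APAP in the comparison of all livers (25.4% of all genes passed), and the median change was -0.02 on the log2 scale. *Pde4b*, which degrades cyclic AMP, rose by 1.96 (SE 0.29, adjusted p = 0.000454), and *Prkar2b*, a regulatory subunit of protein kinase A, rose by 1.74 (adjusted p = 0.0173). *Adcy6*, an adenylyl cyclase, fell by 0.96 (SE 0.20, adjusted p = 0.00439), and *Prkacb*, a catalytic subunit of protein kinase A, fell by 0.52 (adjusted p = 0.00146 by edgeR). Of 14 effectors of Gq, 3 rose and 0 fell, with a median of -0.13. They were *Plcb4*, a phospholipase C-beta, at 1.05 (SE 0.13, adjusted p = 0.000167), the exchange factor *Trio* at 0.61 (adjusted p = 0.0284) and the protein kinase C gene *Prkcd* at 0.42 (adjusted p = 0.0294 by edgeR).

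Of 12 effectors of G12/13, 4 rose with APAP and 0 fell when all livers were used, beside 25.4% of all genes that passed, and their median change was 0.24 on the log2 scale against 0.01 for all genes. *Rock2*, a kinase that acts on the actomyosin cytoskeleton, went from 24.1 to 61.9 CPM, at 1.36 (SE 0.12, adjusted p = 1.03e-05). *Rhob* rose by 1.13 (SE 0.27, adjusted p = 0.00848), the formin *Diaph1* by 0.47 (adjusted p = 0.0133) and *Rhoc* by 0.78 (adjusted p = 0.0425 by edgeR). In WT livers alone, *Rock2* was the single member of this list to pass, at 1.30 (SE 0.16, adjusted p = 0.0114 by edgeR), where 2.05% of all genes passed, and under the KO label *Rock2*, *Rhob* and *Diaph1* passed, where 22.6% did.

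Of 12 tested receptors of hepatocytes, 2 rose and 3 fell (25.4% of all genes passed), with a median of -0.02. *Gcgr*, the glucagon receptor, went from 305 to 208 CPM, at -0.56 (SE 0.11, adjusted p = 0.00255), and *Adra1b*, an adrenaline receptor that couples to Gq/11, from 36.5 to 21.7 CPM, at -0.75 (SE 0.14, adjusted p = 0.00199 by edgeR). The vasopressin receptor *Avpr1a* rose by 0.81 (adjusted p = 0.00935), and the ADP receptor *P2ry1* fell by 0.91 (adjusted p = 0.0102 by edgeR). Of 7 receptor kinases and arrestins 1 rose, *Grk2*, by 0.28 (SE 0.089, adjusted p = 0.036 by edgeR). Between the labels, 0 genes of all these lists passed by edgeR, with 10 of 105 tested at an unadjusted p under 0.05 with vehicle (7.56% of all genes), 3 of 109 with APAP (3.31%) and 6 of 108 over all livers (5.79%). In the interaction 0 of 108 passed, with 7 at the unadjusted threshold, against 5.14% of all genes.

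ER stress genes, which the study relates to *Gna12*, were set beside it. In WT mice given APAP, the study reports more *Gna12* transcript by qRT-PCR and more of its protein by immunoblot. The RNA-seq estimates of *Gna12* given above, from another method, were lower with APAP and passed only under the KO label. The source of this difference was not tested. Of 10 sensors and targets of ER stress, 7 rose with APAP and 0 fell in the comparison of all livers, beside 25.4% of all genes that passed, and the median change was 1.29 on the log2 scale against 0.01 for all genes. *Ddit3* (CHOP) went from 6.75 to 210 CPM, at 4.94 (SE 0.23, adjusted p = 8.42e-08), and the ER chaperone *Hspa5* (GRP78) from 448 to 1508 CPM, at 1.75 (SE 0.14, adjusted p = 4.87e-06 by edgeR). *Eif2ak3* (PERK) rose by 1.60 (adjusted p = 1.8e-05) and *Dnajb9* by 1.26 (adjusted p = 0.000413 by edgeR).

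The 5 genes most like *Gna12*, by the Pearson correlation of log2(CPM + 1) over the 12 livers among 9164 genes with a mean of at least 5 CPM, were *Tbc1d13* (0.968), *Prr12* (0.965), *Vwce* (0.953), *Ap5z1* (0.952) and *Nacc2* (0.95). Without both libraries that stand apart these correlations were 0.849 to 0.942. Among the members with a mean of at least 5 CPM, which leaves out *Gna14* and *Gnai1*, *Gna12* was nearest to *Gna11* (0.833) and farthest from *Gnat1* (-0.774). Correlations between members were not computed without both libraries. These points share libraries and treatment groups, and WT vehicle 2 and WT APAP 1 are low in *Gna12* and high in *Gnat1* among them. Within 1 Mb of *Gna12* on chromosome 5, where flanking sequence may come along with a targeted allele, RefSeq places 39 other genes. Of these 18 were tested with vehicle and 19 with APAP, and 0 passed by edgeR between the labels in either. At an unadjusted p under 0.05 there were 1 and 0, against 7.56% and 3.31% of all genes. Over the 12 livers 0 of 18 passed, with 2 at the unadjusted threshold, against 5.79% of all genes.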

How the data were processed

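RNA-seq data of 12 mouse livers, 3 per group, were analysed. Libraries were made from poly-A RNA with a stranded kit and read in pairs of 100 bases. The submitters' processing notes list FastQC 0.11.7, Trimmomatic 0.38, HISAT2 2.1.0, Bowtie2 2.3.4.1 and StringTie 2.1.3b, with the build mm10 (GRCm38). The counting tool and its strand setting are not given in the sources used here. The authors deposited whole-number read counts per gene without normalization, FPKM values, and TPM values that precede a logarithm and quantile normalization. FPKM deposited by the authors was used only with the counts, to check whether the length behind each value stayed the same between livers (within 0.924 to 1.05 times the typical value for *Gna13* and 0.997 to 1.13 times for *Gnas*). TPM served to compare genes and counts to compare groups. No column was without a sample.

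Counts were scaled by TMM and filtered with filterByExpr. They were tested with glmQLFit and glmQLFTest of edgeR 4.0.16 in R 4.3.3, on the 6 livers of a comparison, or on all 12 with the other factor as covariate or as interaction. P-values were adjusted by Benjamini-Hochberg over all genes tested, at a threshold of 0.05. SE is the log2 fold change divided by the square root of F, and 95% intervals use the t distribution. The procedure was tested on simulated data. CPM are given after TMM scaling. Total counts of 49737950 to 69566079 per library set the precision of low genes. DESeq2 1.42.0, limma 3.58.1 on quantile-normalized log2(TPM + 1), other filters, a replicate block and leaving out libraries were tried as alternatives. No 2 libraries held identical values.

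Gene positions and promoters were taken from RefSeq (GRCm38.p6), which held 45679 of the genes (99.8%), and transcripts from GENCODE M21. For *Gnas*, a locus with several starts, the transcript of 394 codons was used. Genes named were all 10 members, and from each list of partners, effectors, receptors and ER stress genes at most 4 genes with the smallest p among those that passed. For *Gna12* the 5 genes most correlated with it were also named. The members and lists were chosen with earlier results of these data known.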

Additional observations from a re-analysis of the deposited data

How the results depend on the processing

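Of the 640 member log2 fold changes refitted under other settings, 595 kept their direction and their side of the threshold, 10 lost the call, 1 gained it and 34 changed sign. Of 600 refits that left out 1 library, these numbers were 522, 30, 1 and 47. No member result that passed its test changed sign; the cause of each change was not tested.

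The number of genes past the threshold moved by more than 1.5 times under some settings. With the DESeq2 Wald test it was 1413 for APAP in WT (877 higher and 536 lower, against 255 and 67), 137 and 29 for the label with vehicle and with APAP, 79 for the label over 12 livers and 9 for the interaction. With all 12 livers in 1 fit it was 1523 for APAP in WT (968 and 555) and 2249 under the KO label, where 1 member passed, and 0 for the label with vehicle and with APAP. With both libraries that stand apart left out, chosen after seeing the data, it was 631 for APAP in WT (435 and 196) and 2 for the label over 12 livers. limma on log2(TPM + 0.1) gave 8 for the label with vehicle, the newer edgeR method 2 for the label over 12 livers, and a minimum of 10 counts in every sample 1 for the label with APAP. Quantile normalization in limma turned the split of APAP calls over 12 livers from 2307 higher and 1880 lower to 1932 and 2509 with TPM + 1, and to 1981 and 2515 with TPM + 0.1.

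Replicate numbers did not pair the livers (correlations of same-numbered livers -0.411 to 0.0374). With the replicate block, 62 genes passed for APAP in WT (61 higher, 1 lower), 0 for the label with vehicle, 1 with APAP and 0 over 12 livers, and 1 member passed for APAP over 12 livers.

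Calls lost were *Gna12* under the KO label (adjusted p = 0.0621 without a filter, 0.0838 with limma on log2(TPM + 0.1), 0.0717 with the block, 0.358 with all 12 livers in 1 fit), *Gnat1* there (0.0962 with all 12 livers), *Gna13* over 12 livers (0.0986 without a filter, 0.0874 with limma, 0.0676 with the block, 0.0797 without both libraries) and *Gnat1* over 12 livers (0.055 with the block). Without both libraries, the exact permutation test of *Gna12* gave -0.15 for the label and -0.34 for APAP (p = 0.0167, the smallest it can give with 120 assignments).

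Signs changed as follows. For APAP in WT, *Gnas* was -0.00031 with DESeq2 size factors, -0.00035 with the Wald test, -0.11 and -0.12 with limma on TPM + 1 and + 0.1, and -0.095 without both libraries, where *Gnaq* was 0.12. Under the KO label, *Gnai2* was -0.0014 and -0.0015 with DESeq2, -0.029 and -0.029 with limma and -0.0061 in the fit of all 12, and *Gnaq* -0.024 and -0.028 with limma. For the label with limma, *Gnas* was 0.0092 and 0.0093 with vehicle, 0.078 and 0.078 with APAP and 0.037 and 0.038 over 12 livers, and *Gnai2* 0.060 and 0.062 with APAP. *Gnaq* for APAP over 12 livers was -0.067 and -0.081, and the interaction was -0.021 and -0.021 for *Gna13* and 0.065 and 0.065 for *Gnas*. Without both libraries, the label over 12 livers gave -0.15 for *Gna12*, -0.017 for *Gna11*, -0.030 for *Gna14* and 0.015 for *Gnas*, and the interaction -0.031 for *Gnaq*, 0.032 for *Gnas* and -0.43 for *Gnat1*.

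Leaving out 1 library at a time, genes past the threshold ranged from 41 to 442 for APAP in WT, 1995 to 3368 under the KO label and 3225 to 4811 over 12 livers, from 0 to 16, 1 to 7 and 0 to 3 for the label with vehicle, with APAP and over 12 livers, and from 0 to 2 for the interaction. Members past it ranged from 1 to 3 under the KO label and 0 to 2 over 12 livers for APAP, and were 0 in the other comparisons. Log2 fold changes that changed sign ranged, for APAP in WT, from -0.15 to 0.081 (*Gnaq*), -0.13 to 0.098 (*Gnas*) and -0.46 to 0.034 (*Gnai1*). Under the KO label they ranged from -0.13 to 0.012 (*Gna11*), -0.11 to 0.083 (*Gnai2*) and -0.022 to 0.15 (*Gnai3*). For the label with vehicle the ranges were -0.042 to 0.36 (*Gna12*), -0.037 to 0.073 (*Gnaq*), -0.063 to 0.088 (*Gna11*) and -0.028 to 0.023 (*Gnas*). With APAP they were -0.24 to 0.30 (*Gna12*), -0.15 to 0.024 (*Gna13*), -0.21 to 0.033 (*Gnas*), -0.075 to 0.022 (*Gnai2*) and -0.068 to 0.11 (*Gnai3*). Over 12 livers the APAP ranges were -0.024 to 0.084 (*Gnaq*) and -0.093 to 0.015 (*Gnas*), and the label ranges -0.014 to 0.24 (*Gna12*), -0.047 to 0.27 (*Gna14*) and -0.24 to 0.098 (*Gnai1*). The interaction ranged from -0.42 to 0.11 (*Gna12*), -0.018 to 0.16 (*Gna13*), -0.20 to 0.066 (*Gnas*) and -0.51 to 0.96 (*Gnat1*). The exact permutation test of *Gna12* ranged from -0.00094 to 0.32 for the label and from -0.54 (p = 0.025, without WT vehicle 2) to -0.20 for APAP. *Gnai1* under the KO label gained a call without KO APAP 2 (-1.46, adjusted p = 0.0471 by edgeR).

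*Gna14* and *Gnai1*, at 22 to 116 counts, carried the widest counting error. The labels give each library as a separate liver, so p-values set a group difference against the spread between these livers.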
